A study of Mus musculus with 7 samples.

Results

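The genes described here are 32 genes of glycolysis and of the response to low oxygen, measured by RNA sequencing of mouse cortical bone. They were picked by symbol, and all 32 were found among the 27179 Entrez genes of the count files. Of these, 22 carry glucose into the cell, break it down to pyruvate or lactate or regulate those steps, and 10 sense oxygen or are induced when oxygen is low. RNA came from femora of 12-week-old female mice on a C57BL/6 background, with the bone ends cut away and the marrow washed out, from 3 mice labelled Dmp1Cre.EfnB2f/f and 4 controls labelled Dmp1Cre. Both groups carry the Dmp1Cre transgene, in which a Dmp1 promoter drives Cre recombinase in late osteoblasts and osteocytes, and only the first carries floxed Efnb2 alleles. The controls were littermates or cousins without the floxed allele. The study's methods state for its mice in general that they were injected with calcein and were fasted for 12 h before bones were collected. The remaining shaft was used without sorting cells, so each library also holds RNA of cells in which Cre is not active.

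Glycolysis splits glucose into pyruvate in the cytosol and yields ATP without oxygen, and pyruvate can then be reduced to lactate and exported. Cells respond to low oxygen through the transcription factors HIF-1 and HIF-2, whose alpha subunits (Hif1a and Epas1) are hydroxylated when oxygen is present by prolyl hydroxylases such as Egln1 and Egln3 and are then degraded through the Vhl protein. When spared, they bind DNA at a short core motif near their targets, which include many glycolysis genes, Vegfa, Car9, Adm and Ankrd37. Osteocytes lie embedded in mineral, and bone cells are known to use glycolysis heavily.

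The 7 libraries held between 17245556 and 22075778 counts. Efnb2, the targeted gene (Entrez gene 13642), stood at 8.49, 7.93, 6.44 and 6.36 CPM (counts scaled to library size by the TMM method) in controls 1 to 4. It stood at 17.9, 13.1 and 11.8 CPM in replicates 1 to 3 labelled Dmp1Cre.EfnB2f/f. Each of the latter exceeded all controls (exact permutation test, two-sided, p = 0.0286, the smallest the 35 splits allow). The adjusted p was 0.511 with edgeR, 0.0331 with DESeq2 and 0.0162 with the limma pipeline. This goes against the genotype label, so the group is called here by its label. A count over the whole gene does not separate the floxed exon from the others. The study tested the deletion in sorted osteocytes of younger mice, by PCR at the boundary of exons 1 and 2. It reports that Efnb2 was effectively targeted there and retained in non-osteocytic cells. The counts here are of unsorted bone. On the first principal component of log2 CPM, controls 1 and 4 stood apart, at -43.89 and -68.77, from the other 5 libraries, which lay between 1.76 and 41.4. Replicates 1 and 2 labelled Dmp1Cre.EfnB2f/f came from a parent cross with no control, and only replicate 3 shared a cross with a control, also numbered 3. Controls 1 and 2 shared a different cross, and control 4 came from a cross of its own. The edgeR and permutation tests treated the 7 libraries as independent, so their p-values do not separate genotype from cross. The study collected samples on 2 days, 2 deficient and 3 control samples on the first and 1 of each on the second. Since the labels do not give the day, the libraries of the shared cross may differ in it, and their ratio may hold a difference between days.

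All 32 genes were expressed above the minimum used for testing (0.65 CPM in at least 3 libraries), and their counts ran from 19 for Ankrd37 to 73699 for Aldoa in single libraries. Levels per kilobase of gene length allow genes to be compared. On this scale Aldoa, the muscle and red cell form of the enzyme that splits fructose bisphosphate, was highest, at 1208 ± 318 CPM per kilobase (SD, n = 4) in the controls. The lowest Aldoa value among the controls, 882 CPM per kilobase, exceeded the highest of the next gene, Pkm, which was 459. Pkm (pyruvate kinase, 361 ± 75.9 CPM per kilobase), Ldha (lactate dehydrogenase A, 275 ± 58.4) and Tpi1 (triose phosphate isomerase, 230 ± 55.7) followed, and the ranges of these neighbours overlapped over the controls. Pfkm, the muscle phosphofructokinase, came next with 142 ± 55.8 CPM per kilobase. At the other end lay Car9 (2.16 ± 0.369), Ankrd37 (1.48 ± 0.354), Aldoc (1.22 ± 0.262) and Adm (1.21 ± 0.670), all 4 near or under 2. Ankrd37, Aldoc and Adm did not differ beyond the spread between controls. Aldoa alone supplied from 31.0% to 39.5% of the summed CPM of the 32 genes in the controls and from 38.6% to 44.0% in those labelled Dmp1Cre.EfnB2f/f.

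**Figure D1:**
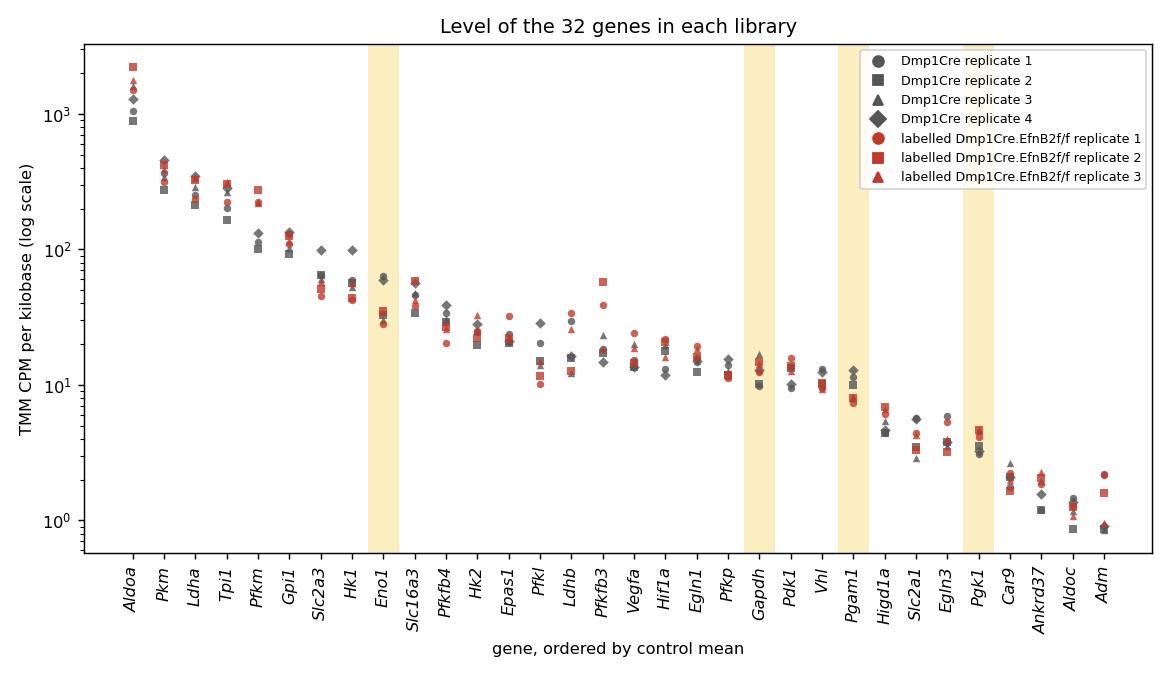
Level of each of the 32 genes in each of the 7 libraries, in TMM CPM per kilobase on a log axis, ordered from left to right by the control mean. Grey marks are Dmp1Cre and red marks are libraries labelled Dmp1Cre.EfnB2f/f, the shape gives the replicate number, and pale bands mark the 4 genes with more than 30% of their 100-base transcript windows shared with another gene. Levels run from 1208 CPM per kilobase for Aldoa to 1.21 for Adm in the control means, and for most genes the red and grey marks overlap.

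Gapdh and Pgk1, catalysing neighbouring steps and usually counted among the abundant transcripts of any cell, ranked only 21st and 28th of the 32. Gapdh stood at 12.5 ± 3.24 CPM per kilobase and Pgk1 at 3.63 ± 0.725 (SD, n = 4 controls), from 220 to 355 and from 107 to 155 counts in single libraries. Their sequences recur in other annotated genes. Of the 100-base windows of the GENCODE M21 transcript of Gapdh, 78% (1031 of 1321) also occur without a mismatch in a transcript of another gene, 84 genes in all. The share was 67.0% for Pgk1 (3 other genes), 59.0% for Eno1 and 39.7% for Pgam1. For 21 members, Aldoa, Pfkm, Hk1 and Hk2 among them, it was 0%, and for the remaining 7 it lay between 0.796% (Tpi1) and 9.82% (Pkm). To show what is shared, a coding stretch of Gapdh is printed, all in capitals since every base of it recurs elsewhere. It covers transcript bases 982 to 1081 and recurs in 40 other genes.
Gapdh: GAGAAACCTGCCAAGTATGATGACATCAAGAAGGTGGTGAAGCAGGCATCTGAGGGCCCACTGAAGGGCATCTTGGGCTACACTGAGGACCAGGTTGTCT
Among the copies that the count files list, Eno1b had 492, 535, 505 and 1276 counts in controls 1 to 4 and 409, 219 and 616 in those labelled Dmp1Cre.EfnB2f/f, and the Gapdh copies Gm12070 and Gapdh-ps15 had 23 to 70 and 1 to 5 counts. How the counting treated reads that match several genes is not given in the sources used here, and the values of Gapdh, Pgk1, Eno1 and Pgam1 are uncertain. The part of shared sequence in them was not tested.

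**Figure D2:**
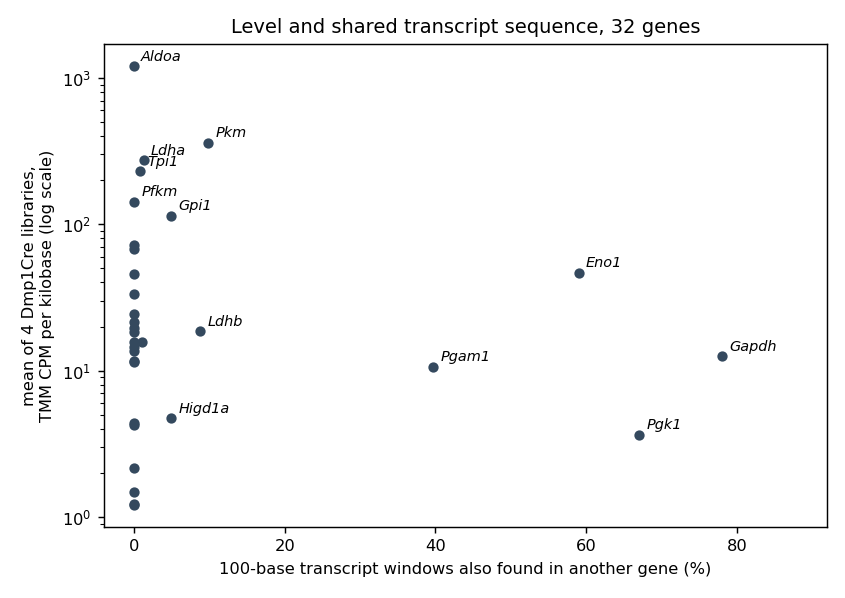
Mean control level of each of the 32 genes (TMM CPM per kilobase, log axis) against the percentage of its 100-base transcript windows that also occur in another annotated gene. Gapdh at 78%, Pgk1 at 67.0%, Eno1 at 59.0% and Pgam1 at 39.7% stand apart from the other 28 genes, which lie at 9.82% or less.

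The comparison of genotypes asks which RNAs differ in bone when Efnb2 is targeted in the osteocyte lineage. With edgeR's quasi-likelihood test and adjustment over all 15098 genes tested, 0 of the 32 genes passed an adjusted p of 0.05 (adjusted p from 0.511 to 0.979), against a background of 0% of all genes. DESeq2, which called 0.477% of all genes, and limma-voom also called 0 of the 32. At an unadjusted p under 0.05 there were 6 (18.8%, against 9.66% of all genes). Pfkm, Pfkfb3 and Higd1a were on the higher side (4.63% of all genes) and Pfkl, Pfkfb4 and Pgam1 on the lower side (5.03% of all genes). Without 1 library the count of 6 became 3 (control 1, 2 or 4 left out), 9 (control 3), 2 (replicate 1 or 3 labelled Dmp1Cre.EfnB2f/f) or 1 (replicate 2 labelled Dmp1Cre.EfnB2f/f). Without both controls 1 and 4 it was 2. The share of all genes at that p was not computed for these fits, so their counts have no background beside them. A pipeline like the study's used limma on quantile-normalised log2 CPM with quality weights, but lacked the study's term for the day of collection. It called 6 of the 32, beside 14.9% of all genes. All 6 were higher (Gpi1, Pfkm, Pfkfb3, Aldoa, Tpi1 and Higd1a), beside 7.49% of all genes called higher. Mean levels were higher among libraries labelled Dmp1Cre.EfnB2f/f for 20 of the 32 genes and lower for 12, beside 51.3% higher among all genes. The median log2 fold change (libraries labelled Dmp1Cre.EfnB2f/f minus controls, as throughout) was 0.13 over the 32 genes, 0.04 over the 22 of glycolysis and 0.30 over the 10 of the oxygen response, beside 0.01 over all genes. For 6 of the 32 genes no value of one group lay within the other (18.8%, against 11.3% of all genes). Egln1 and Higd1a were above every control (5.05% of all genes), and Slc2a3, Pfkp, Pfkfb4 and Pgam1 were below every control (6.3% of all genes).

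**Figure D3:**
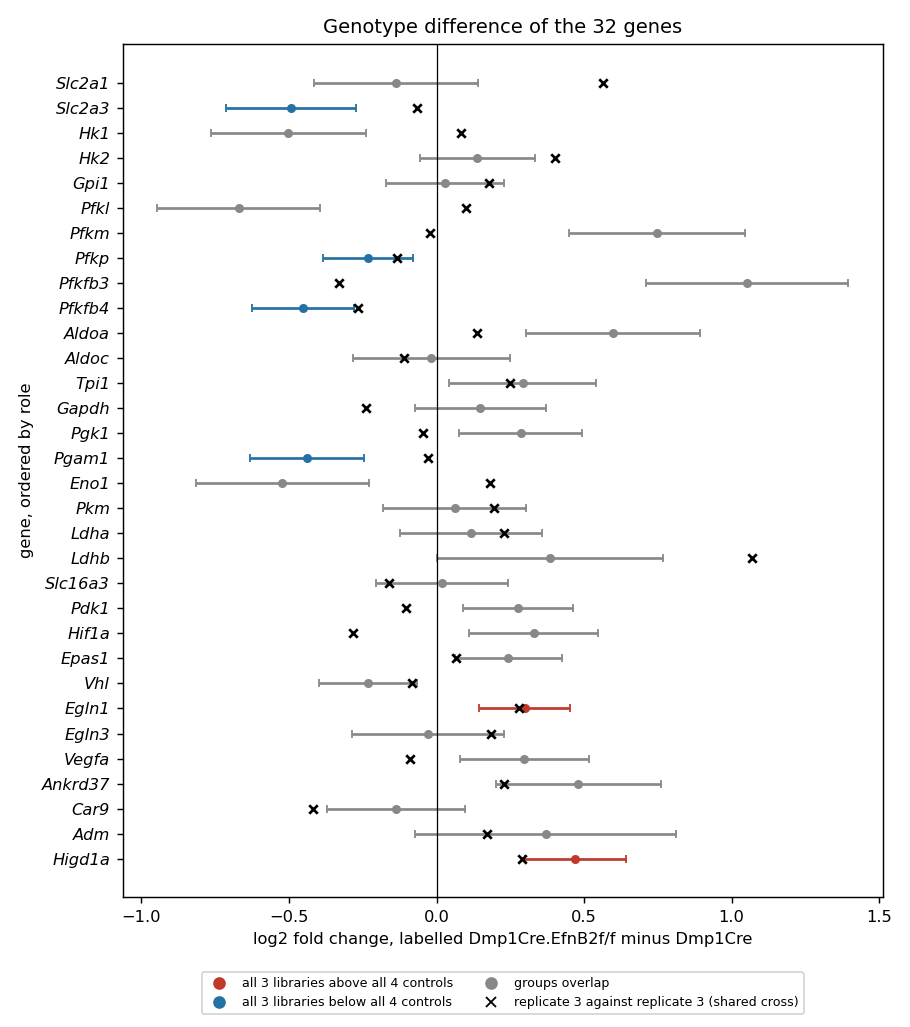
Log2 fold change of each of the 32 genes, libraries labelled Dmp1Cre.EfnB2f/f (n = 3) minus Dmp1Cre (n = 4), as points with bars of 1 standard error from edgeR, with genes ordered by role from glucose entry to oxygen targets. Crosses give the log2 ratio within the only parent cross that holds both groups (1 library each, day of collection not given). Pfkfb3 has the highest estimate, 1.05, and Pfkl the lowest, -0.67, and for Pfkfb3, Pfkl and Pfkm the cross lies on the other side of 0 from the point.

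Markers of other cell types also differed in mean level between the groups, without passing an adjusted p of 0.05. The summed level of 20 skeletal muscle markers (Ttn, Myh4 and Acta1 the highest) was 26961, 26301, 62596 and 23457 CPM in controls 1 to 4 and 67374, 78749 and 57475 in those labelled Dmp1Cre.EfnB2f/f. All 20 had a higher mean in the latter (51.3% of all genes), 7 of them at an unadjusted p under 0.05 by edgeR (4.63% of all genes). Their median log2 fold change was 0.81. Control 3 had as much muscle marker RNA as the libraries labelled Dmp1Cre.EfnB2f/f. The 12 erythroid markers in the files (Hba-a1, Slc4a1 and Alas2 the highest, Hbb-bt and Ahsp not listed) summed to 14406 to 35487 CPM in the controls, control 4 highest, and to 6081 to 12526 CPM in the other group. The 14 granulocyte markers (S100a9, Ngp and S100a8 the highest) summed to 19889 to 23539 CPM in the controls and 14073 to 17409 CPM in those labelled Dmp1Cre.EfnB2f/f. Neither sum overlapped between groups. At an unadjusted p under 0.05 by edgeR, 4 of the 12 erythroid and 5 of the 14 granulocyte markers were lower (5.03% of all genes). The 15 osteoblast and osteocyte markers (Col1a1, Col1a2 and Bglap the highest) were present in every library, at 14762 to 72779 CPM in the controls, control 1 highest, and 15595 to 25085 CPM in the others. Sums of cycling cell, osteoclast, B lineage, endothelial, adipocyte and chondrocyte markers overlapped between the groups, and no marker in the files was at 0 in every library. Of the 10 cycling cell markers, 0 had a higher mean and 2 were lower at that p. On the higher side at that p were 3 of 12 endothelial and 1 of 12 B lineage markers. In bulk bone, fewer cells of a type and less RNA per cell cannot be told apart. The part of these cell types in the results on the 32 genes was not tested.

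**Figure D4:**
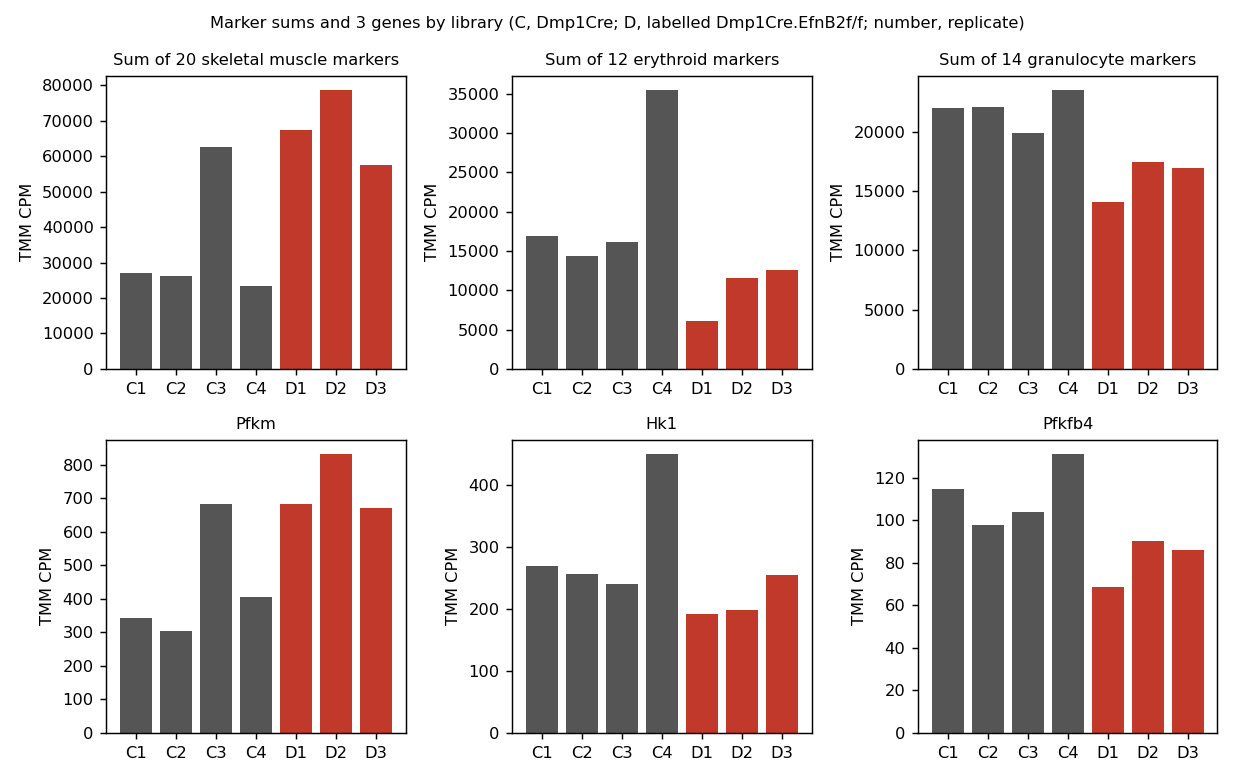
Summed TMM CPM of the skeletal muscle, erythroid and granulocyte markers (upper row) and TMM CPM of Pfkm, Hk1 and Pfkfb4 (lower row) in each library, with C for Dmp1Cre, D for libraries labelled Dmp1Cre.EfnB2f/f and the replicate number. Muscle markers and Pfkm are high in C3 and in all 3 D libraries, and erythroid markers and Hk1 are highest in C4.

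Both glucose transporters among the 32 genes had lower means among libraries labelled Dmp1Cre.EfnB2f/f. Slc2a3 (GLUT3, the high-affinity transporter, Entrez gene 20527, chromosome 6 from 122727809 to 122802363 of GRCm38.p6) stood at 258, 258, 240 and 389 CPM in controls 1 to 4 and at 180, 200 and 229 CPM in those labelled Dmp1Cre.EfnB2f/f. Every one of the latter was below every control, with control 4 well above the rest. The log2 fold change was -0.49 with a standard error of 0.22 (edgeR adjusted p = 0.511; exact permutation p = 0.0571). Slc2a1 (GLUT1, the transporter of red cells and many other cells) was much lower, at 14.6, 8.90, 7.49 and 14.4 CPM in the controls and 11.3, 8.50 and 11.1 CPM in the others. Its groups overlapped throughout (log2 fold change -0.14, standard error 0.28).

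Hexokinases phosphorylate glucose and so trap it in the cell, and Gpi1 (phosphoglucose isomerase) carries out the next step. Hk1, the hexokinase of red cells, brain and most other tissues, was at 269, 256, 240 and 450 CPM in controls 1 to 4 and at 191, 198 and 254 CPM in those labelled Dmp1Cre.EfnB2f/f. Its highest library, control 4, is also the one with the most erythroid marker RNA, and the log2 fold change was -0.50 with a standard error of 0.26. Hk2, the insulin- and HIF-regulated form of muscle, was at 109 to 154 CPM in the controls and 123 to 182 CPM in the others, and Gpi1 at 264 to 387 and 312 to 361 CPM. Both overlapped, with log2 fold changes of 0.14 and 0.03 and a standard error of 0.20 for each.

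Phosphofructokinase makes the committed step of glycolysis, and its 3 isozymes had means that lay on different sides of the controls. Pfkm, the muscle form (Entrez gene 18642, chromosome 15 from 98092589 to 98132447), stood at 344, 305, 682 and 407 CPM in the controls and at 683, 833 and 671 CPM in those labelled Dmp1Cre.EfnB2f/f. Control 3 was level with these 3, as it was for muscle markers, and the other controls were lower. The log2 fold change was 0.75 with a standard error of 0.30 (edgeR unadjusted p = 0.0341, adjusted p = 0.511). Pfkl, the form named for liver, was at 75.4, 56.2, 51.8 and 107 CPM in the controls and 38.0, 43.2 and 55.5 CPM in the others. The log2 fold change was -0.67 with a standard error of 0.28. Its groups overlapped, since replicate 3 labelled Dmp1Cre.EfnB2f/f lay above control 3. Pfkp, the platelet form, was at 56.2, 47.6, 50.7 and 62.2 CPM in the controls and 44.8, 47.3 and 46.2 CPM in the others. All 3 lay just under the lowest control (log2 fold change -0.23, standard error 0.15, exact permutation p = 0.0571). Between control 3 and replicate 3 of their shared cross, the log2 ratios were -0.02 for Pfkm and 0.10 for Pfkl.

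The bifunctional enzymes Pfkfb3 and Pfkfb4 set the amount of fructose 2,6-bisphosphate, the activator of phosphofructokinase. Pfkfb3 (Entrez gene 170768, chromosome 2 from 11471430 to 11554071), whose enzyme chiefly makes the activator, was at 97.8, 90.9, 123 and 78.6 CPM in the controls and at 206, 303 and 97.5 CPM in those labelled Dmp1Cre.EfnB2f/f. Replicates 1 and 2 were above every control and replicate 3 was within their range. The log2 fold change was 1.05 with a standard error of 0.34 (edgeR unadjusted p = 0.0138, adjusted p = 0.511). It rests on 2 libraries of a cross that has no control. Genotype and cross cannot be told apart in those 2 libraries, the part of the day of collection was not tested, and in the shared cross the log2 ratio was -0.33. Pfkfb4 (Entrez gene 270198, chromosome 9 from 108988272 to 109032236) went the other way, at 115, 98.0, 104 and 131 CPM in the controls and 68.8, 90.4 and 86.2 CPM in the others. All 3 lay below all 4 controls, with a log2 fold change of -0.45 and a standard error of 0.17. The exact permutation p was 0.0286, and edgeR's unadjusted and adjusted p were 0.0288 and 0.511. In the shared cross the log2 ratio was -0.27. The granulocyte marker sum was below the lowest control in the same 3 libraries.

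Among the enzymes that split and oxidise the sugar phosphates, Aldoa was at 1911, 1609, 2944 and 2348 CPM in the controls and at 2720, 4042 and 3237 CPM in those labelled Dmp1Cre.EfnB2f/f. Control 3 was above replicate 1 labelled Dmp1Cre.EfnB2f/f. The log2 fold change was 0.60 with a standard error of 0.29 (edgeR adjusted p = 0.517). Aldoc, the brain aldolase, was near 2 CPM in both groups (2.07 ± 0.445, SD, n = 4, and 2.05 ± 0.179, n = 3). Tpi1 was at 263 to 457 CPM in the controls and 356 to 504 CPM in the others (log2 fold change 0.29, standard error 0.25). Gapdh, which oxidises glyceraldehyde 3-phosphate, was at 12.2 to 20.8 and 15.3 to 18.2 CPM (0.15, standard error 0.22). Pgk1, which makes the first ATP of the pathway, was at 5.54 to 8.43 and 7.39 to 8.34 CPM (0.28, standard error 0.21). The groups of all 3 overlapped.

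In the lower part of the pathway, Pgam1 and Eno1, the non-muscle phosphoglycerate mutase and enolase, had lower means among libraries labelled Dmp1Cre.EfnB2f/f. Pgam1 was at 20.8, 18.3, 15.0 and 23.7 CPM in the controls and 13.6, 14.8 and 14.7 CPM in the others. All 3 were below the lowest control by a small margin (log2 fold change -0.44, standard error 0.19, exact permutation p = 0.0571). Eno1 was at 114, 58.6, 53.7 and 106 CPM in the controls and 49.8, 62.7 and 60.9 CPM in the others. Controls 1 and 4, the libraries that stand apart, were high and the rest alike. Its log2 fold change was -0.52 with a standard error of 0.29, and it was 0.04 without those 2 controls. Pkm was at 717 to 1194 CPM in the controls and 821 to 1097 CPM in the others, a log2 fold change of 0.06 with a standard error of 0.24.

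The fate of pyruvate is set by lactate dehydrogenase, by the lactate exporter Slc16a3 (MCT4) and by Pdk1, a kinase that keeps pyruvate out of mitochondria by inhibiting pyruvate dehydrogenase. Ldha was at 487, 408, 554 and 674 CPM in the controls and 453, 624 and 649 CPM in the others. The groups overlapped throughout (log2 fold change 0.12, standard error 0.24). Ldhb, the heart form, varied most of the 4, with 38.3, 20.5, 15.9 and 21.0 CPM in the controls and 44.0, 16.2 and 33.4 CPM in the others (0.38, standard error 0.38). Slc16a3 (86.9 to 146 and 98.9 to 151 CPM) and Pdk1 (48.8 to 70.5 and 65.6 to 81.7 CPM) also overlapped, with log2 fold changes of 0.02 and 0.28 and standard errors of 0.22 and 0.19.

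For oxygen sensing, Egln1 (PHD2, the main hydroxylase of HIF alpha, Entrez gene 112405, chromosome 8 from 124908587 to 124949254) was at 55.5, 44.0, 53.2 and 52.5 CPM in the controls and at 68.3, 56.5 and 64.6 CPM in those labelled Dmp1Cre.EfnB2f/f. All 3 were above all 4 controls, replicate 2 by only a little. The log2 fold change was 0.30 with a standard error of 0.15 (exact permutation p = 0.0286; edgeR unadjusted p = 0.0844, adjusted p = 0.517). Egln3, a hydroxylase that is itself induced by low oxygen, was at 15.8, 10.2, 9.43 and 10.1 CPM in the controls and 14.2, 8.61 and 10.7 CPM in the others. Its groups overlapped (log2 fold change -0.03, standard error 0.26). Hif1a, at 62.1, 84.4, 93.6 and 56.2 CPM in the controls and 103, 98.9 and 76.9 CPM in the others, was low in controls 1 and 4 (0.33, standard error 0.22). Epas1 (108 to 127 and 117 to 173 CPM) and Vhl (26.8 to 36.0 and 25.3 to 28.4 CPM) had log2 fold changes of 0.24 and -0.23, with standard errors of 0.18 and 0.17. Since HIF alpha is controlled mainly through the stability of the protein, these are values of RNA alone.

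Of the targets of HIF, Higd1a, a mitochondrial inner membrane protein induced by low oxygen (Entrez gene 56295, chromosome 9 from 121848557 to 121857796), was at 8.29, 8.27, 10.2 and 8.64 CPM in the controls and 11.5, 12.9 and 12.4 CPM in those labelled Dmp1Cre.EfnB2f/f. The groups did not overlap, with control 3 the nearest. The log2 fold change was 0.47 with a standard error of 0.17 (edgeR unadjusted p = 0.0224, adjusted p = 0.511; exact permutation p = 0.0571). In the shared cross the log2 ratio was 0.29, and leaving out any 1 library kept the fold change between 0.44 and 0.55. Vegfa, the endothelial growth factor, was at 63.6, 56.9, 83.1 and 56.6 CPM in the controls and 101, 61.1 and 78.1 CPM in the others (0.30, standard error 0.22). Ankrd37, a gene of an ankyrin repeat protein, rested on 19 to 39 counts a library. It was at 1.09 to 1.76 CPM in the controls and 1.67 to 2.06 CPM in the others (0.48, standard error 0.28). Adm, the vasodilator peptide adrenomedullin, was at 3.06, 1.20, 1.17 and 1.25 CPM in the controls and 3.00, 2.19 and 1.32 CPM in the others, from 20 to 59 counts. Control 1 was as high as any library, and the log2 fold change was 0.37 with a standard error of 0.44. Car9, the membrane carbonic anhydrase often used as a marker of hypoxia, lay the other way, at 3.47 to 5.21 CPM in the controls and 3.24 to 4.39 CPM in the others (-0.14, standard error 0.23).

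The core of the HIF binding motif, searched as ACGTG or GCGTG on both strands, was looked for in the RefSeq promoter windows of GRCm38.p6, which span 250 bases before to 50 after each start. Windows were given for 30 of the 32 genes, 44 windows in all, and 27 genes had at least 1 core in a window. The core was in 79.5% of these 44 windows, beside 43.8% of all 32851 windows, and at least 2 cores were in 56.8%, beside 20.6%. Windows of 1 gene can overlap, and many of the 32 genes are known as HIF targets, so this share is a description of a chosen set. ACGTG was in 52.3% (all windows 19.6%), GCGTG in 54.5% (32.4%) and the palindrome CACGTG, which counts as ACGTG once on each strand, in 9.09% (7.15%). The 250 bases upstream of the start are printed in the direction of the gene, with the cores in capitals. They are shown for Egln1 and Higd1a, the 2 genes above every control, and for Pfkfb4, 1 of the 4 below every control. Ldha is shown as the member with the most cores in one window. Egln1 is at chr8:124949255-124949504 (minus strand), Higd1a at chr9:121857797-121858046 (minus strand) and Pfkfb4 at chr9:108991652-108991901 (plus strand). Ldha is at chr7:46845554-46845803 (plus strand, 1 of the 2 windows given for it). The 50 bases after this Ldha start matched no GENCODE transcript of Ldha at either end, unlike those of Egln1, Higd1a and Pfkfb4.
Egln1: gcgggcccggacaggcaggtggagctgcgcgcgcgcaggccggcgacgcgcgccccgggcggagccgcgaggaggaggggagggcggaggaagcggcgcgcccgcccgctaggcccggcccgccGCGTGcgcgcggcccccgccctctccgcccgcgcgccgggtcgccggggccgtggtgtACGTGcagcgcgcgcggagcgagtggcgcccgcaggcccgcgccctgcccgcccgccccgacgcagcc
Higd1a: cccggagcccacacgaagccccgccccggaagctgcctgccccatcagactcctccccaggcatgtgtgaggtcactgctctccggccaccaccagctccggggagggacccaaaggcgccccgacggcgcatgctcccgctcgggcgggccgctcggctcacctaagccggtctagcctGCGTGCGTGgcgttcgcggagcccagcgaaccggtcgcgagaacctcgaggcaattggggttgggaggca
Pfkfb4: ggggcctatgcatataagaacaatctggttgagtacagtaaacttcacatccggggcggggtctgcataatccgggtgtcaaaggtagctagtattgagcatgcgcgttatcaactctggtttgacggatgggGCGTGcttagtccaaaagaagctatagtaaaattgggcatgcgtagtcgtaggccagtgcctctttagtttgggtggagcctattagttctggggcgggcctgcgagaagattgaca
Ldha: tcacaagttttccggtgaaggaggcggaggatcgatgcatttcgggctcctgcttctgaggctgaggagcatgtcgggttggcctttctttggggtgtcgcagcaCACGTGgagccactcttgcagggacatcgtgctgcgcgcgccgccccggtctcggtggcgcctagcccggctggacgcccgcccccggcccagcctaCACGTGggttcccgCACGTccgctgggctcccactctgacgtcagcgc
These 250 bases hold 2 cores for Egln1, 2 that share a base for Higd1a, 1 for Pfkfb4 and 5 for Ldha, of which 2 CACGTG account for 4. Genes with cores lay on both sides of 0 in the comparison of genotypes, Pfkfb4 lower, Egln1 and Higd1a higher and Ldha between. In whole windows, Pfkp and Pgam1, also below every control, had 4 and 3 cores. Egln1 had 2, Higd1a 3 and Pfkfb4 1 on that count, and Slc2a3 had no window. A match describes the letters alone.

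Several steps are carried out by a tissue-specific set of isozymes, and the share of one in the summed counts per kilobase of its family does not depend on the scaling between libraries. Among 9 families compared, 1 had groups that did not overlap. Hk2 made up 14.9, 13.3, 16.9 and 11.7% of hexokinase 1, 2 and 3 in controls 1 to 4 and 22.2, 18.9 and 21.7% in those labelled Dmp1Cre.EfnB2f/f. The difference was 6.71 percentage points (exact permutation test, two-sided, p = 0.0286; adjusted over the 9 families, p = 0.171). Hk3, the hexokinase of myeloid cells, was itself below every control. Pfkm made up 76.6, 78.7, 89.3 and 75.1% of the phosphofructokinases in the controls and 91.3, 92.1 and 89.2% in the others, control 3 lying among the latter (exact permutation p = 0.0857). The muscle enolase Eno3 had 83.0, 90.0, 95.2 and 87.3% of its family in the controls and 94.3, 95.6 and 95.3% in the others (exact permutation p = 0.0857). The muscle mutase Pgam2 had 93.1, 92.2, 97.4 and 93.6% in the controls and 96.4, 97.2 and 97.6% in the others (exact permutation p = 0.114). For both, control 3 lay within the range of the libraries labelled Dmp1Cre.EfnB2f/f, as it did for muscle markers. The shares of Eno3 and Pgam2 set them against Eno1 and Pgam1, whose counts are uncertain for the shared sequence described above. Pfkfb3 had 35.2, 37.1, 42.9 and 27.6% of Pfkfb3 and Pfkfb4 in the controls and 65.6, 68.0 and 41.8% in the others, so that replicate 3 lay among the controls (exact permutation p = 0.0571). For Slc2a1, Aldoa, Ldha and Epas1 the differences were 1.53, 0.037, -1.34 and -2.05 percentage points and the groups overlapped. At an adjusted p of 0.05, 0 of the 9 families passed.

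**Figure D5:**
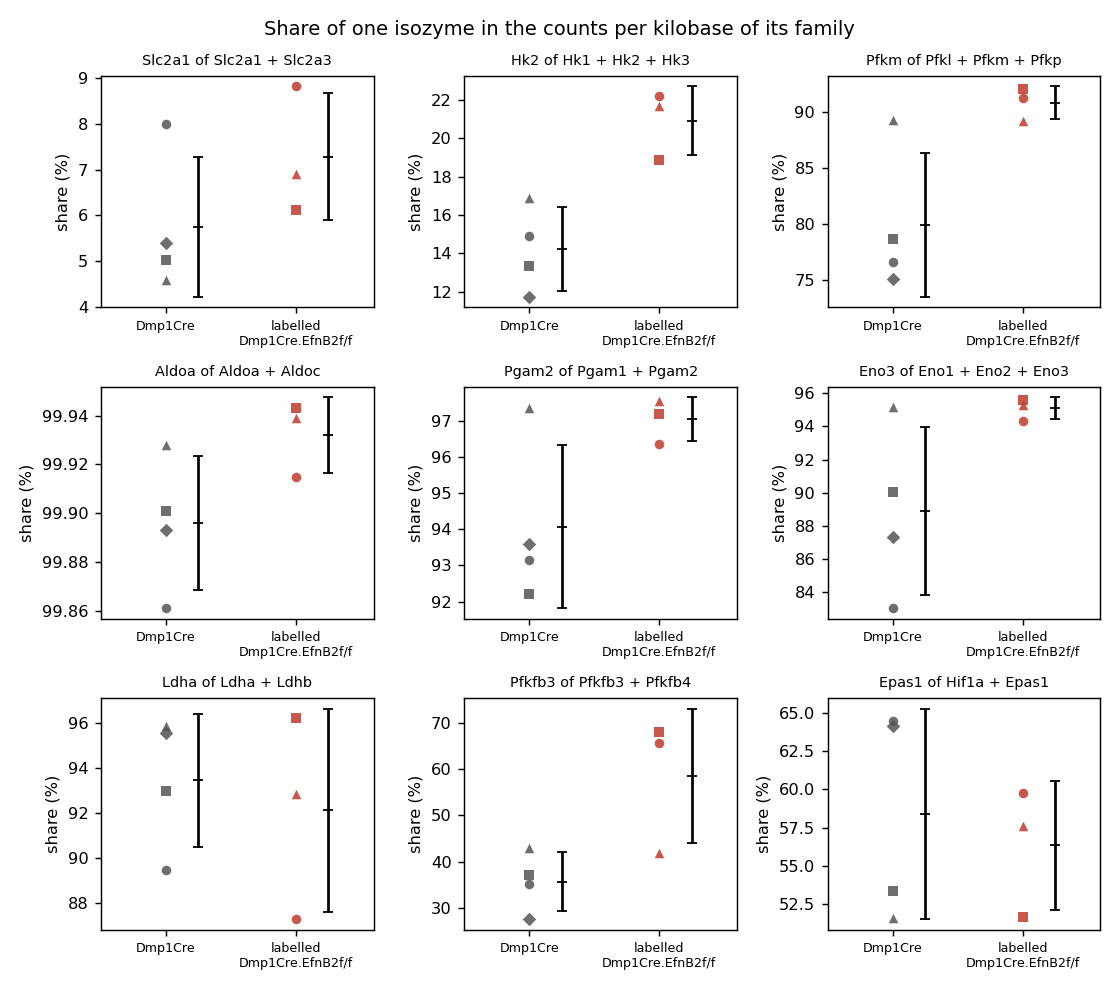
Share of 1 isozyme in the counts per kilobase of its family, in percent, for 9 families, with a point per library (grey Dmp1Cre, red labelled Dmp1Cre.EfnB2f/f, shape for the replicate number) and bars for the mean and SD of each group. Each panel has its own axis, which does not start at 0. Hk2 is the only panel whose groups do not overlap, and in the Pfkm, Pgam2 and Eno3 panels control 3 (triangle) lies with the red points.

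Other genes of the same pathways were drawn from lists beyond the 32. Of 33 further glycolysis, glycogen and pyruvate genes tested, 0 passed the adjusted p of edgeR, and 10 had an unadjusted p under 0.05 (30.3%, against 9.66% of all genes), 5 higher and 5 lower. The groups did not overlap for 7 (21.2%, against 11.3%), and the median log2 fold change was 0.21. Pklr, the pyruvate kinase of liver and red cells, was at 41.4, 38.1, 37.4 and 82.2 CPM in the controls and 22.7, 22.4 and 31.7 CPM in those labelled Dmp1Cre.EfnB2f/f (log2 fold change -0.96, standard error 0.32). Bpgm, which makes 2,3-bisphosphoglycerate in red cells, was at 414, 428, 475 and 809 CPM and 253, 344 and 352 CPM in the same order (-0.75, standard error 0.29). For both genes control 4, highest in erythroid markers, was highest and all 3 libraries labelled Dmp1Cre.EfnB2f/f were below every control. Hk3 (-0.64, standard error 0.22), the ADP-dependent glucokinase Adpgk (-0.50, 0.19) and the liver glycogen phosphorylase Pygl (-0.41, 0.17) were also below every control. So was the gene listed as Pgm1 (Entrez gene 66681 on chromosome 5), at -0.32 with a standard error of 0.17. The gene listed as Pgm2 (Entrez gene 72157 on chromosome 4) had a higher mean (0.55, 0.28), and its groups overlapped. Pdk2, a kinase like Pdk1, was the 1 gene above every control (0.62, 0.21). The muscle glycogen phosphorylase Pygm was at 498, 446, 1012 and 617 CPM in the controls and 996, 1548 and 1071 CPM in the others (0.91, 0.33), with control 3 level with the latter. The muscle fructose bisphosphatase Fbp2 (1.40, 0.58), the regulator Tigar (0.73, 0.28) and the insulin-responsive transporter Slc2a4 (0.45, 0.19) likewise had control 3 highest of the controls.

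Of 39 further hypoxia genes tested, 0 passed the adjusted p of edgeR, and 3 had an unadjusted p under 0.05 (7.69%, against 9.66% of all genes). These 3 were on the higher side (4.63% of all genes), and the same 3 were the genes without overlap (7.69%, against 11.3% of all genes and 5.05% on the higher side). The median log2 fold change of the list was 0.01. Bnip3, a receptor for the removal of mitochondria, was at 30.1, 26.2, 29.9 and 12.3 CPM in the controls and 76.1, 56.0 and 40.1 CPM in those labelled Dmp1Cre.EfnB2f/f (log2 fold change 1.22, standard error 0.33, edgeR adjusted p = 0.511). The study, whose limma model held the day of collection, lists Bnip3 among its top differentially expressed genes. There it is up-regulated and marked as associated with autophagy. Flt1, a receptor of VEGF and also in the endothelial marker list, was at 40.2, 39.3, 41.1 and 35.1 CPM and 67.8, 54.7 and 53.0 CPM (0.59, 0.16). Rora, a nuclear receptor, was at 13.5, 9.30, 12.1 and 6.52 CPM and 18.0, 18.5 and 14.7 CPM (0.72, 0.26). Next by p came the chemokine receptor Cxcr4 (-0.37, 0.21) and Kdr, another VEGF receptor and endothelial marker (0.32, 0.18), and both had overlapping groups. Of the 39, 21 had a higher and 18 a lower mean, and Epo, the hormone gene of kidney and liver, was not expressed enough to be tested.

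The spread between libraries was set beside that of all genes. The SD of log2 CPM over the 7 libraries had a median of 0.302 over the 32 genes, from 0.171 for Pfkp to 0.715 for Pfkfb3, beside 0.353 over all genes tested. Control 2 was the lowest library for the set as a whole, with 7 of the 32 genes above their mean over libraries and a median deviation of -0.29 on the log2 scale. The other 6 libraries had 15 to 18 genes above the mean and medians from -0.01 to 0.10. Summed over the 32 genes, levels were 6144, 5110, 7446 and 7564 CPM in controls 1 to 4 and 7042, 9196 and 8077 CPM in those labelled Dmp1Cre.EfnB2f/f. In the 1 cross that holds both groups, 17 of the 32 genes were higher in the library labelled Dmp1Cre.EfnB2f/f than in the control. The median size of the log2 ratio was 0.18, and it was largest for Ldhb, at 1.07.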

How the data were processed

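RNA of 7 flushed femora was sequenced after a TruSeq RNA preparation. Reads were mapped by the authors to mm10 with Rsubread, and the deposited values are the read counts that featureCounts assigned to each Entrez gene, without normalisation or filter, beside the gene lengths deposited by the authors. The settings for strand and for reads with several matches are not given in the sources used here. Conversion of the sequencer files used bcl2fastq 2.17.1.14, per the labels.

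A minimum of 0.65 CPM in 3 or more libraries was passed by 16302 genes, of which 15098 remained after pseudogenes, predicted and unnamed genes, immunoglobulin segments, ribosomal RNA and Y-linked genes with Xist were removed. Differences were tested with edgeR 4.0.16 (TMM, robust quasi-likelihood) in R 4.3.3 and adjusted by the Benjamini-Hochberg method over all genes. Each standard error is the fold change on the log2 scale over the root of F. Permutation tests are exact and two-sided, on log2(CPM + 0.1) or shares. DESeq2 1.42.0, limma 3.58.1 (with a prior count of 2) and limma-voom were alternatives. The study blocked on the day of collection, which the labels do not give for each library, so it was not fitted. Per the study's methods, both collection days held both genotypes. Whether the libraries of the shared cross were collected on the same day is not known.

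The 32 genes and the lists were chosen with earlier results of these data known. The text names all 32 genes, Efnb2, their isozymes, and from the other lists those with groups that did not overlap or an adjusted p under 0.05, and the 5 of each with the lowest p. Tigar, Fbp2, Slc2a4 and Pgm2 were named after their values were seen. The tests were tried on simulated counts that held no parent cross or day of collection. That trial does not measure their performance on these libraries. Positions and promoters are RefSeq GRCm38.p6, and transcripts GENCODE M21. Exons of Aldoa, Ankrd37, Car9, Gpi1, Hif1a, Higd1a, Pfkm, Pfkp, Pkm, Slc2a1, Tpi1, Hk3, Pklr, Bnip3, Rora and Tigar overlap another annotated gene, so their counts may hold reads of it. Nothing in the labels says that replicates shared more than a genotype and cross, and p-values measure the spread between these single-mouse libraries. Some libraries of a group shared a parent cross, and the main tests treated them as independent. Their p-values do not separate genotype from cross.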

Additional observations from a re-analysis of the deposited data

Results flagged for a closer look

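Of 42 results checked among the 4 controls, 4 had 1 library far from the rest, where chance gives about 2.1 (1 in 20). The value given is the gap to the nearest library divided by the range of the group, which must exceed the 95% critical value of Dixon's test for 4 values. Slc2a3 (0.879) and Hk1 (0.864) were high in control 4, at 389 and 450 CPM. Egln3 (0.878) and Adm (0.958) were high in control 1, at 15.8 and 3.06 CPM. Controls 1 and 4 are the libraries that stand apart on the first principal component, control 4 having the highest sum of erythroid markers and control 1 the highest sum of osteoblast and osteocyte markers. The part of either in these 4 values was not tested.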

How the results depend on the processing

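Counts of genes past the threshold depended on the tool. Of all genes, 0 passed with edgeR, 72 with DESeq2, 58 with limma-voom and 2246 with the limma pipeline, 1 with the replicate block, 2 without both controls 1 and 4 (added after seeing the data) and 0 to 2 with 1 library left out (2 without control 4 or replicate 3 labelled Dmp1Cre.EfnB2f/f). The limma pipeline called 6 of the 32 genes and 18 of the 72 other glycolysis and hypoxia genes tested (25%, beside 14.9% of all genes), and every other setting 0 of the 32. The count at an unadjusted p under 0.05 was 6 in the main test (9.66% of all genes) and 16 with the limma pipeline (32.9% of all genes). It was 10 with limma-voom, 2 without both controls 1 and 4, 0 with the replicate block and 1 to 9 with 1 library left out. For limma-voom, the replicate block and the fits with libraries left out, the share of all genes was not computed. Their counts therefore have no background beside them. The same replicate numbers did not pair the libraries, with correlations of deviations of -0.145, 0.0631 and -0.419, so the block is given only as a value. Pairs with different numbers ranged from -0.483 to 0.48, the latter between control 4 and replicate 3 labelled Dmp1Cre.EfnB2f/f. The day of collection of each library is not in the labels, and its part was not tested. The median control level of the 32 genes was 68.8 CPM with TMM and 63.4 CPM with library size only.

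Of the 32 genes, 14 kept their sign in all 18 alternatives. With the parent cross as a block, which leaves only the shared cross to set the difference, 13 log2 fold changes changed sign (Slc2a1 0.56, Hk1 0.084, Pfkl 0.099, Pfkm -0.023, Pfkfb3 -0.33, Gapdh -0.24, Pgk1 -0.045, Eno1 0.18, Slc16a3 -0.16, Pdk1 -0.10, Hif1a -0.28, Egln3 0.18, Vegfa -0.090). Without controls 1 and 4 the sign changed for Slc2a1 (0.33), Aldoc (0.24), Eno1 (0.044) and Egln3 (0.19), with the limma pipeline for Aldoc (0.17), Eno1 (0.018) and Ldhb (-0.036), with limma-voom for Slc2a1 (0.10) and Aldoc (0.28), with library size only for Aldoc (0.077) and Egln3 (0.061), with upper quartile for Aldoc (0.00023), with the replicate block for Slc2a1 (0.039) and Aldoc (0.064), and with DESeq2 for Slc16a3 (-0.0060). With 1 library left out, 7 genes changed sign: Aldoc (-0.15 to 0.081), Egln3 (-0.24 to 0.17), Gpi1 (-0.062 to 0.12), Hk2 (-0.041 to 0.27), Pkm (-0.047 to 0.20), Slc16a3 (-0.17 to 0.14) and Slc2a1 (-0.29 to 0.0048), as did the shares of Ldha (-3.40 to 1.07 points) and Epas1 (-4.31 to 0.30 points). The cause was not tested. Among the 32 genes the standard error was largest for Adm (0.44, 20 to 59 counts a library) and next for Ldhb (0.38, 272 to 792 counts). Ankrd37, with 19 to 39 counts, had 0.28, below Pfkfb3 (0.34, 1446 to 5519 counts).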

Other observations

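Pdk4, the pyruvate dehydrogenase kinase induced by fasting and glucocorticoids, varied more between libraries than any of the 32 genes. It was at 406, 240, 675 and 56.1 CPM in controls 1 to 4 and at 1580, 1166 and 36.4 CPM in those labelled Dmp1Cre.EfnB2f/f, a log2 fold change of 1.43 with a standard error of 1.04 (edgeR adjusted p = 0.574). Replicates 1 and 2, from one parent cross, were the highest 2 libraries, and replicate 3 was the lowest of all 7, followed by control 4. Pfkfb3 had its 2 highest values in the same 2 libraries. The study's mice were fasted before collection, and the part of fasting in these values was not tested. Pdk4 was named after its values were seen.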
